A study of Mus musculus with 24 samples.

Results

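The 47 genes described here encode proteins that build ribosomes in the nucleolus and that are known as targets of the transcription factor MYC. They were chosen by name, as rows of the count table, and all 47 were found among its 55487 genes. All 47 also passed the filter on low counts, which left 15527 genes for testing. By role, 6 of them act in transcription by RNA polymerase I, 7 in small nucleolar ribonucleoproteins (snoRNPs), 4 as general nucleolar proteins, 14 in assembly of the small ribosomal subunit and 16 in assembly of the large subunit.

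MYC binds DNA with its partner MAX, most strongly at the E-box CACGTG, and raises transcription of genes for growth. Ribosome synthesis is among the best described of these programs: RNA polymerase I copies the ribosomal DNA, snoRNPs modify and fold the precursor RNA, and assembly factors cleave it and mount the ribosomal proteins. In prostate tumours driven by MYC, enlarged nucleoli are a classical histological feature.

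The libraries are of RNA from Myc-CaP, a single mouse prostate tumour line in which a human MYC transgene under a probasin promoter drives growth, and which the labels call MYC overexpressing. All 8 groups carry that transgene, and each holds 3 libraries of cells kept in drug or solvent for 6 days, with drug and medium renewed after 3 days. Controls received DMSO. The single drugs and their targets were palbociclib at 1 µM (CDK4/6), PF-06873600 at 500 nM (CDK2/4/6), alisertib at 500 nM (Aurora kinase A), docetaxel at 3.75 µM (microtubules), etoposide at 500 nM (topoisomerase II) and Nutlin at 500 nM (binding of MDM2 to p53). The group labelled T/P was read as 25 nM trametinib, a MEK inhibitor, with 1 µM palbociclib, since no other group's label fits the trametinib named in the protocol. The study was designed to treat these cells with therapies that induce senescence, and each drug is therefore compared with the solvent.

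Total counts lay between 21260781 and 28318784 in 23 libraries and reached 69757257 in the docetaxel library 1, and the lowest count of any of the 47 genes in a library was 521. Of the epithelial markers described here, Krt19 reached a mean of 76.0 CPM (counts relative to the library's size, scaled by the trimmed mean of M-values, TMM) in DMSO and Krt8 35.7, whereas Epcam had a mean of 0 there, Cdh1 0.123 and Krt18 0.535. Of 13 markers of basal cells, fibroblasts, endothelium and immune cells, the fibroblast marker Pdgfra was between 12.9 and 26.0 CPM in the 8 group means, Cd68 was at 2.09 CPM in DMSO, and the other 11 had group means of at most 1.53 CPM. Krt8 and Krt19 were lower in every drug group, between 4.54 (alisertib) and 15.7 CPM (PF-06873600) for Krt8. The labels do not say whether libraries of 1 group are separate cultures, so p-values measure only the spread between these libraries. In bulk RNA, fewer cells of a kind and less RNA per cell cannot be told apart.

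Promoter windows of RefSeq on build GRCm38.p6, from 250 bases before to 50 bases after the annotated start, were found for 42 of the 47 genes. The motif CACGTG, which reads the same on both strands, lies in the window of 12 of these 42 genes (28.6%). Among all 27025 genes of the promoter table it lies in 8.09%. In 9 of the 12 it lies downstream of the annotated start and in 3 upstream. The 4 of the 12 genes with the highest mean level are shown with the motif in capitals, as examples of where the motif lies. Each run has 30 bases, is written 5′ to 3′ and lies on the plus strand.

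Mybbp1a at chr11:72441347-72441376: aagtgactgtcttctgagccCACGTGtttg
Wdr43 at chr17:71616220-71616249: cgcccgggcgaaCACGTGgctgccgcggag
Pes1 at chr11:3963965-3963994: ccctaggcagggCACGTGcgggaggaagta
Nop2 at chr6:125131811-125131840: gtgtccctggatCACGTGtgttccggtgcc

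In Mybbp1a, Wdr43 and Pes1 the motif lies within 50 bases downstream of the start, and in Nop2 it lies 60 to 55 bases upstream. A motif match is a description of these letters and says nothing on binding, which was not measured. No test was made between the 12 genes with the motif and the 30 without it. With alisertib the medians were -0.08 and -0.15 on the log2 scale, with 5 of 12 and 12 of 30 called lower. With palbociclib they were -0.09 and -0.08, with 5 of 12 and 7 of 30 called lower. In the 7 comparisons with DMSO the medians of the 2 sets lay furthest apart with T/P, at 0.03 and -0.07.

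The 47 genes spanned a wide range of levels in DMSO, in the deposited TPM, a level per transcript length. Npm1, which encodes nucleophosmin, the abundant nucleolar chaperone, was highest at 2501 ± 80.6 TPM (SD, n = 3). It was followed by Rrp1 at 407 ± 19.8 TPM and by Ncl, which encodes nucleolin, at 370.0 ± 12.6 TPM. The lowest were Noc3l at 18.4 ± 1.60 TPM and Wdr12 at 10.3 ± 0.553 TPM. For most of the 47 genes the level moved little between the 8 groups. The ratio of the highest to the lowest group mean, in CPM, had a median of 1.27. Its median was 1.75 over all genes tested, and 1.43 over the 6302 tested genes with a mean at or above the 28.6 CPM of the lowest of the 47. In 43 of the 47 genes the ratio was under 1.5, and the other 4 were Npm1 at 2.06, Fbl at 1.73, Nop16 at 1.63 and Polr1c at 1.61.

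Summed over the 47 genes, the TMM-scaled level was 9220 ± 333 CPM in DMSO (mean ± SD, n = 3). It was 9119.6 ± 296 CPM with Nutlin and 8729 ± 355 CPM with T/P. With PF-06873600 it was 8688 ± 88.1 CPM, with etoposide 8354 ± 349 CPM and with palbociclib 8185 ± 60.6 CPM. The lowest sums were 7819.7 ± 368 CPM with alisertib and 7632 ± 239 CPM with docetaxel. No test was run on this sum, since the genes were chosen with results of these data known. As an unscaled share of all counts the order differed, with 0.858% ± 0.0260 in DMSO, 0.899% ± 0.00508 with etoposide, 0.832% ± 0.0116 with alisertib and 0.811% ± 0.00623 with palbociclib. Etoposide was below DMSO on the scaled sum and above it on the unscaled share, and so was PF-06873600 (0.861% ± 0.00361). Npm1 makes up a large part of these sums. Without it, the other 46 genes summed to 6837 ± 205 CPM in DMSO, 6929 ± 243 CPM with etoposide, 6907 ± 45.97 CPM with PF-06873600 and 6469 ± 189 CPM with docetaxel, and the lowest sums were 6388 ± 32.0 CPM with palbociclib and 6366 ± 269 CPM with alisertib. As an unscaled share, these 46 genes held 0.636% ± 0.0206 in DMSO, 0.633% ± 0.00561 with palbociclib, 0.642% ± 0.0128 with T/P and 0.622% ± 0.0148 with Nutlin. On that share alisertib (0.678% ± 0.0121), docetaxel (0.695% ± 0.0143), PF-06873600 (0.685% ± 0.00548) and etoposide (0.746% ± 0.00832) lay above DMSO.

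**Figure D1:**
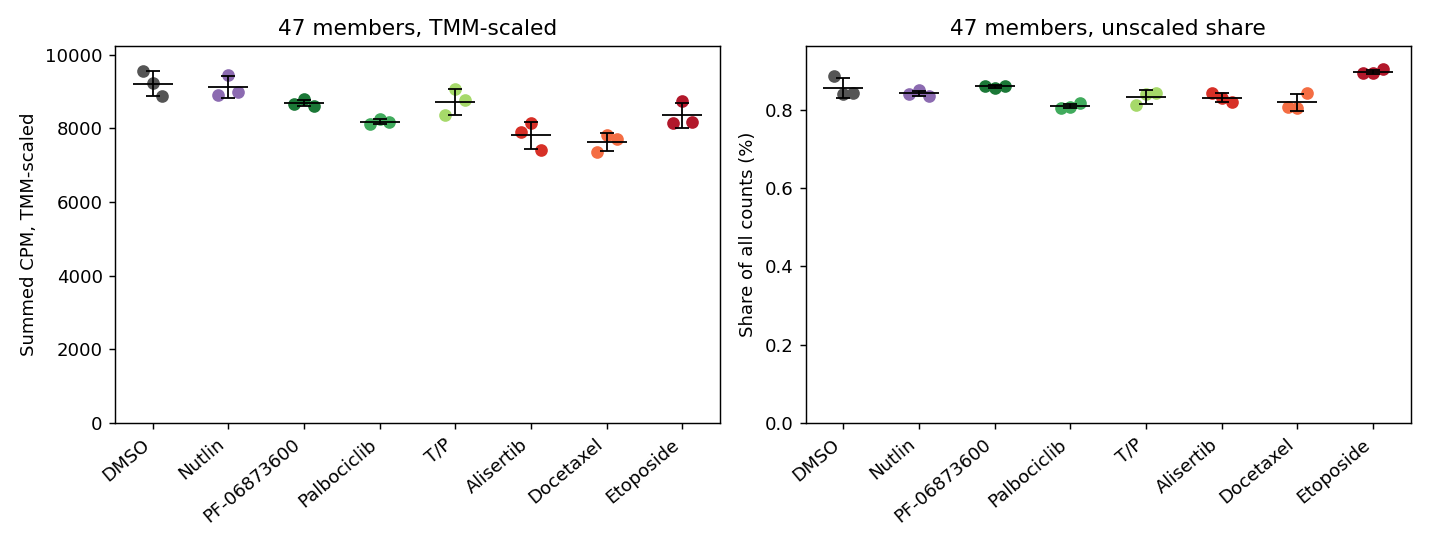
Summed level of the 47 genes in each library, on the left as TMM-scaled CPM and on the right as percent of all counts. Points are libraries, horizontal bars are group means and whiskers are 1 SD (n = 3). On the left, alisertib (7819.7) and docetaxel (7632) have the lowest means, while on the right etoposide has the highest (0.899%).

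Each drug was tested against DMSO with edgeR's quasi-likelihood test, and a gene was called at a Benjamini-Hochberg adjusted p under 0.05 over all 15527 genes. All 7 comparisons share the 3 DMSO libraries. With alisertib 20 of the 47 genes were called lower and 8 higher, where 26.1% of all tested genes were lower and 27.8% higher. Palbociclib lowered 15 and raised 3, against 17.4% lower and 18.5% higher of all genes. Docetaxel lowered 13 and raised 5, against 22.5% and 26.5%. Etoposide lowered 12 and raised 10, against 26.9% and 27.7%. T/P lowered 7 and raised 5, against 14.6% and 15.1%. PF-06873600 lowered 6 and raised 7, against 14.1% and 17.9%. Nutlin lowered 7 and raised 2, against 11.4% and 8.02%. The share called lower was furthest above that of all genes for alisertib and palbociclib. With total counts in place of TMM factors as scaling it stayed above for palbociclib (11 of 47, where 12.8% of all genes were lower) and not for alisertib (7 of 47, where 15.5% were). With alisertib, RLE factors (another scaling) and DESeq2 each gave 15 of 47 lower, where 3721 and 3747 of the 15527 genes were. The share called higher was below that of all genes with every drug under TMM, but with total counts it was above it for PF-06873600 (17 of 47, where 25.0% of all genes were higher), docetaxel (25, where 42.2% were), etoposide (27, where 40.4% were) and T/P (9, where 17.6% were). The median log2 fold change over the 47 genes was -0.13 with alisertib, -0.09 with palbociclib, -0.06 with T/P and with Nutlin, -0.05 with docetaxel, and 0.01 or less in size with etoposide and PF-06873600. Over all tested genes the 7 medians lay between 0.00 and 0.04.

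The split into higher and lower depended on the scaling. Using total counts moved the median of all genes by 0.20 with alisertib, 0.21 with docetaxel and 0.21 with etoposide on the log2 scale, and by under 0.1 in the other comparisons with DMSO. Changes are therefore given relative to the TMM scaling. With total counts, alisertib raised 18 of the 47, docetaxel lowered 3 and etoposide lowered 5. That scaling gave 2 lower with PF-06873600, 10 higher with palbociclib, 7 lower with T/P, and 7 lower and 2 higher with Nutlin. Across all tested genes it also moved the share of calls that were higher, from 51.5% to 71.8% with alisertib, from 54.2% to 78.4% with docetaxel and from 50.7% to 71.6% with etoposide. That share moved from 56.0% to 72.0% with PF-06873600, from 51.5% to 65.6% with palbociclib and from 50.8% to 58.4% with T/P. Palbociclib is the drug with the most falls called under TMM, RLE and total-count scaling alike, 11 of the 47.

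**Figure D2:**
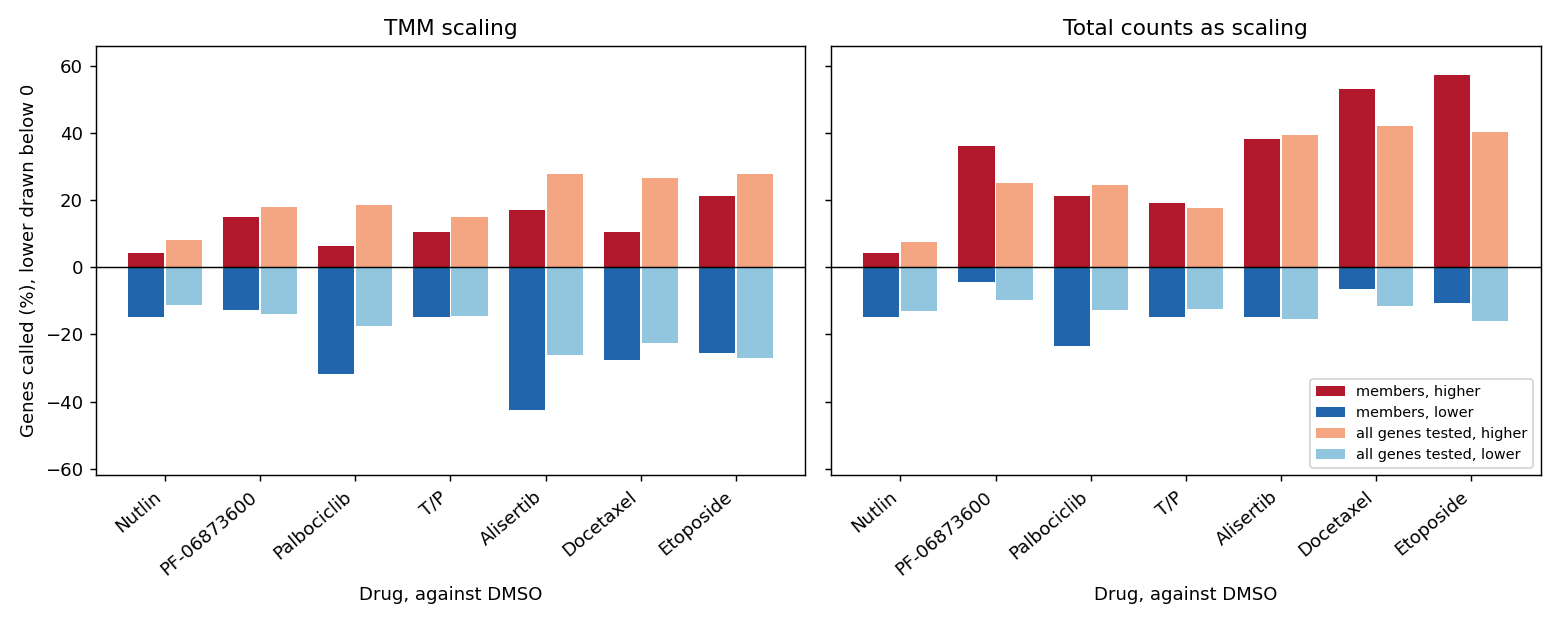
Percent of genes called higher (above 0) or lower (below 0) against DMSO at an adjusted p under 0.05, for the 47 genes (dark) and for all 15527 genes tested (light), with TMM factors on the left and total counts on the right. On the left alisertib has 20 of 47 lower, on the right 7 of 47.

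Single libraries also moved these counts. With PF-06873600 the genes called higher fell from 7 to 1 without DMSO 3 or without PF-06873600 2, and to 4 without DMSO 1, DMSO 2 or PF-06873600 1, and those called lower fell from 6 to 3 without DMSO 1. A block for the library number, read as pairing the libraries in this comparison, gave 11 higher and 7 lower. With alisertib the 8 called higher became 3 without DMSO 1 or Alisertib 3, 4 without Alisertib 2 and 5 without DMSO 3, and the 20 called lower became 13 without DMSO 1. With docetaxel the 5 called higher became 3 without DMSO 1, DMSO 3 or Docetaxel 2. With palbociclib the 3 called higher became 1 without any 1 of the DMSO libraries, Palbociclib 2 and Palbociclib 3. With T/P the 5 called higher became 3 without DMSO 3 or T/P 2, and the 7 called lower became 4 without DMSO 1, T/P 1 or T/P 3. With Nutlin the 7 called lower became 0 without Nutlin 1, 1 without DMSO 2 or Nutlin 3, 2 without DMSO 1 and 4 without DMSO 3, and the 2 called higher became 1 without Nutlin 3. No call with Nutlin held under every alternative tried, whereas 11 falls with palbociclib, 6 falls and 3 rises with alisertib, and 5 falls and 5 rises with etoposide did.

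Of the RNA polymerase I genes, Polr1c, a subunit shared by RNA polymerases I and III, fell with 6 drugs. Its level was 83.5, 81.0 and 75.2 CPM in the 3 DMSO libraries and 56.0, 59.2 and 49.9 CPM with alisertib. Every alisertib library lay below every DMSO library, and the log2 fold change was -0.54 ± 0.084, adjusted p 1.04e-05 (± SE, edgeR). It was -0.42 ± 0.084, adjusted p 0.000207 with docetaxel, -0.40 ± 0.084, adjusted p 0.000309 with etoposide and -0.33 ± 0.084, adjusted p 0.00363 with palbociclib. With PF-06873600 it was -0.27 ± 0.084, adjusted p 0.0162, and the call was lost with total counts as scaling (-0.18, adjusted p 0.052). With T/P it was -0.23 ± 0.084, adjusted p 0.044, lost without any 1 of DMSO 1, DMSO 2 and T/P 1 (adjusted p 0.0675 to 0.14). With Nutlin the level was 83.8, 92.7 and 89.6 CPM, each library above every DMSO library, without passing the test (0.15 ± 0.083, adjusted p 0.227).

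Polr1b, the second largest subunit of RNA polymerase I, had 78.4, 86.5 and 82.1 CPM in DMSO, 64.1, 65.7 and 67.2 CPM with alisertib and 63.0, 66.7 and 65.6 CPM with etoposide. Its log2 fold change was -0.33 ± 0.054, adjusted p 2.23e-05 with alisertib, -0.23 ± 0.054, adjusted p 0.000986 with docetaxel and -0.34 ± 0.054, adjusted p 1.22e-05 with etoposide. With total counts as scaling these 3 calls were lost, at -0.13, adjusted p 0.0672, -0.02, adjusted p 0.752 and -0.13, adjusted p 0.0718. With palbociclib the log2 fold change was -0.08 ± 0.054, adjusted p 0.291, and with PF-06873600 it was 0.01 ± 0.054, adjusted p 0.899.

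Rrn3, the initiation factor TIF-IA that recruits the polymerase to ribosomal DNA and through which growth signals act on it, moved the other way. Its level was 73.6, 76.2 and 75.6 CPM in DMSO, 86.6, 93.5 and 91.4 CPM with etoposide and 94.1, 90.5 and 85.9 CPM with T/P. In both drug groups each library lay above every DMSO library. Its log2 fold change was 0.27 ± 0.058, adjusted p 0.000416 with etoposide and 0.26 ± 0.058, adjusted p 0.00125 with T/P. With PF-06873600 it was 0.20 ± 0.058, adjusted p 0.0104, lost without any 1 of DMSO 1, DMSO 2, DMSO 3 and PF-06873600 2 (adjusted p 0.0696 to 0.11). With palbociclib it was 0.18 ± 0.058, adjusted p 0.0207, lost without any 1 of DMSO 1, DMSO 2, DMSO 3, Palbociclib 1, Palbociclib 2 and Palbociclib 3 (adjusted p 0.0568 to 0.139). With docetaxel it was -0.07 ± 0.058, adjusted p 0.321 and with alisertib 0.09 ± 0.058, adjusted p 0.183, and with total counts as scaling both became calls higher (0.14, adjusted p 0.036 and 0.29, adjusted p 9.45e-05).

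The other 3 genes of this role changed less. Ubtf, which encodes the factor UBF that holds ribosomal genes open, stayed between group means of 229.5 CPM (palbociclib) and 257 CPM (Nutlin), around 246 ± 12.5 CPM in DMSO. Polr1a, the largest polymerase subunit, had 97.6 ± 2.01 CPM in DMSO and 109 ± 2.29 CPM with palbociclib (0.16 ± 0.062, adjusted p 0.0531). Neither was called in any comparison with DMSO under the main settings. With the replicate block Polr1a was called higher with palbociclib (0.16, adjusted p 0.034) and T/P (0.16, adjusted p 0.0396). In these comparisons the library numbers were not read as pairs. With total counts Ubtf was called higher with alisertib (0.14, adjusted p 0.0342), docetaxel (0.22, adjusted p 0.00212) and etoposide (0.26, adjusted p 0.00033). Polr1a was then called higher with these 3 drugs, palbociclib (0.25, adjusted p 0.00339) and T/P (0.19, adjusted p 0.0197). Mybbp1a, a nucleolar protein that binds MYB and p53, had 529.5, 546 and 528 CPM in DMSO and 476, 498 and 474 CPM with Nutlin, a log2 fold change of -0.15 ± 0.051, adjusted p 0.0452. That call was lost without any 1 of DMSO 1, DMSO 2, DMSO 3, Nutlin 1 and Nutlin 3 (adjusted p 0.0856 to 0.19). With the replicate block it was called higher with PF-06873600 (0.12, adjusted p 0.0323) and etoposide (0.11, adjusted p 0.0467), and with total counts also with alisertib (0.23, adjusted p 5.96e-05) and docetaxel (0.23, adjusted p 4.84e-05).

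Among the 7 snoRNP genes, Fbl was called lower with 6 drugs, and 4 others were called higher with etoposide. Fbl encodes fibrillarin, the methyltransferase of box C/D snoRNPs. It had 201, 175 and 172 CPM in DMSO, 117, 109 and 90.9 CPM with alisertib and 132, 139 and 128 CPM with palbociclib. All alisertib and palbociclib libraries lay below all DMSO libraries. The log2 fold change was -0.79 ± 0.10, adjusted p 6.43e-07 with alisertib, the largest fall of any of the 47 with this drug. It was -0.46 ± 0.10, adjusted p 0.00105 with palbociclib and -0.36 ± 0.10, adjusted p 0.00775 with T/P. With docetaxel it was -0.36 ± 0.10, adjusted p 0.0046 and with etoposide -0.34 ± 0.10, adjusted p 0.00638, and with total counts as scaling both calls were lost, at -0.15, adjusted p 0.131 and -0.13, adjusted p 0.208. The etoposide call was also lost without Etoposide 3 (adjusted p 0.0547). With PF-06873600 it was -0.30 ± 0.10, adjusted p 0.0237, lost with total counts (-0.21, adjusted p 0.0602) and without any 1 of DMSO 1 and PF-06873600 3 (adjusted p 0.0558 to 0.0658). With Nutlin it was -0.17 ± 0.10, adjusted p 0.255.

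Its partners in the box C/D particle, Nop56 and Nop58, did not share that pattern. Nop58 had 186, 173 and 168 CPM in DMSO and 208, 241 and 234 CPM with etoposide, with no overlap between the groups, and rose by a log2 fold change of 0.37 ± 0.067, adjusted p 5.19e-05. Its log2 fold change was -0.03 ± 0.067, adjusted p 0.722 with alisertib and -0.08 ± 0.067, adjusted p 0.402 with palbociclib. Nop56 had 301, 248 and 251 CPM in DMSO and 338, 292 and 303 CPM with etoposide, where DMSO 1 lay inside the range of the drug. Under TMM scaling it was called with etoposide alone (0.22 ± 0.087, adjusted p 0.0357), a call lost without any 1 of DMSO 2, DMSO 3 and Etoposide 1 (adjusted p 0.133 to 0.185). With total counts Nop56 was also called higher with alisertib (0.26, adjusted p 0.0296) and docetaxel (0.27, adjusted p 0.0277). Nop58 was then also called higher with PF-06873600 (0.21, adjusted p 0.0116) and alisertib (0.16, adjusted p 0.0293). The interaction between drug and gene was not tested.

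Of the box H/ACA genes, Dkc1 encodes dyskerin, the pseudouridine synthase. It had 124, 124 and 119 CPM in DMSO and 104, 103 and 113 CPM with palbociclib, with a log2 fold change of -0.20 ± 0.069, adjusted p 0.0265 that was lost with total counts as scaling (-0.11, adjusted p 0.179) and without Palbociclib 2 (adjusted p 0.0548). With alisertib it was -0.20 ± 0.069, adjusted p 0.0202, lost with total counts (-0.00055, adjusted p 0.995) and without any 1 of DMSO 1, DMSO 2 and Alisertib 1 (adjusted p 0.0514 to 0.1). RLE factors (another scaling) and DESeq2 also lost it. Gar1, another protein of these particles, was called lower with alisertib (-0.32 ± 0.13, adjusted p 0.0413) at 59.6, 47.6 and 37.0 CPM, against 66.4, 57.9 and 55.7 CPM in DMSO. The groups overlapped, and the call was lost without any 1 of DMSO 1, Alisertib 2 and Alisertib 3 (adjusted p 0.0765 to 0.285) and with total counts as scaling (-0.13, adjusted p 0.381). It was also lost with RLE factors and with DESeq2. Nhp2, of the same particles, was called higher with etoposide (0.35 ± 0.12, adjusted p 0.019), a call lost without any 1 of DMSO 3, Etoposide 1 and Etoposide 2 (adjusted p 0.0652 to 0.0989). Nolc1, a chaperone that carries snoRNPs to the nucleolus, had 247, 234 and 238 CPM in DMSO and 286, 295 and 293 CPM with etoposide, and rose there (0.28 ± 0.056, adjusted p 0.000161).

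Among the general nucleolar proteins, Npm1 carried the largest change of all 47 genes. Its level was 2477, 2474 and 2196 CPM in DMSO, 1096, 1173 and 1220.2 CPM with docetaxel, 1429.5, 1573 and 1358 CPM with alisertib and 1364, 1548 and 1363 CPM with etoposide. No library of these 3 drugs reached the lowest DMSO library. The log2 fold change was -1.03 ± 0.083, adjusted p 6.69e-10 with docetaxel, the only one of the 47 called past 2-fold with this drug, where 2.91% of all genes were called lower and past 2-fold. It was -0.74 ± 0.083, adjusted p 6.77e-08 with etoposide and -0.71 ± 0.083, adjusted p 1.56e-07 with alisertib.

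With PF-06873600 Npm1 had 1757, 1832 and 1754 CPM and with palbociclib 1775, 1833 and 1786 CPM. The log2 fold changes were -0.42 ± 0.082, adjusted p 0.000355 and -0.41 ± 0.082, adjusted p 0.000509. The doses of these kinase inhibitors differ, 500 nM and 1 µM, and the values stand side by side without a comparison. With T/P Npm1 had 1887, 2178 and 1968 CPM, a log2 fold change of -0.24 ± 0.082, adjusted p 0.0272, and the call was lost without any 1 of DMSO 1, DMSO 2, T/P 1 and T/P 3 (adjusted p 0.0565 to 0.0797). With Nutlin it had 2147, 2649.5 and 2404 CPM, spread around the DMSO libraries (0.01 ± 0.082, adjusted p 0.954). The 5 calls other than that with T/P held under every alternative tried. Genes elsewhere in the genome that share near-identical stretches with Npm1 held counts equal to 1.27% of its own.

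Ncl, which encodes nucleolin, had 1403, 1320.2 and 1314 CPM in DMSO and 1039, 1149 and 1166 CPM with docetaxel, with no overlap. It fell there by a log2 fold change of -0.27 ± 0.078, adjusted p 0.00681, and with total counts as scaling the call was lost (-0.06, adjusted p 0.388). Under TMM scaling Ncl was called in no other comparison with DMSO. With etoposide it had 1318, 1558 and 1344 CPM (0.06 ± 0.078, adjusted p 0.516), which total counts turned into a call higher (0.27, adjusted p 0.000286). Ddx21, an RNA helicase that links RNA polymerase I and II transcription, had 251, 277 and 276 CPM in DMSO and 279, 325 and 303 CPM with alisertib. Each alisertib library lay above every DMSO library (0.17 ± 0.071, adjusted p 0.0426). The alisertib call was lost without any 1 of DMSO 1, DMSO 2, DMSO 3, Alisertib 2 and Alisertib 3 (adjusted p 0.0517 to 0.197). Ddx21 was also called higher with etoposide, its highest group (mean 306 CPM), a call lost without any 1 of DMSO 1, Etoposide 2 and Etoposide 3. With total counts it was called higher with PF-06873600 (0.26, adjusted p 0.00206), palbociclib (0.20, adjusted p 0.0149), T/P (0.21, adjusted p 0.0133) and docetaxel (0.37, adjusted p 3.69e-05). The replicate block gave a call higher with PF-06873600 (0.17, adjusted p 0.0154). Gnl3, which encodes nucleostemin, was called in no comparison with DMSO under the main settings. It varied widely inside groups, with 188, 149.8 and 176 CPM in DMSO and 233, 136 and 188 CPM with Nutlin. The library numbered 2 was the lowest in each of the 8 groups. With the block Gnl3 was called lower with alisertib (-0.24, adjusted p 0.0107) and etoposide (-0.24, adjusted p 0.00906), where the numbers were read as pairs. Both drugs also gave a call of Gnl3 with no filter on low counts and without the libraries numbered 2.

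**Figure D3:**
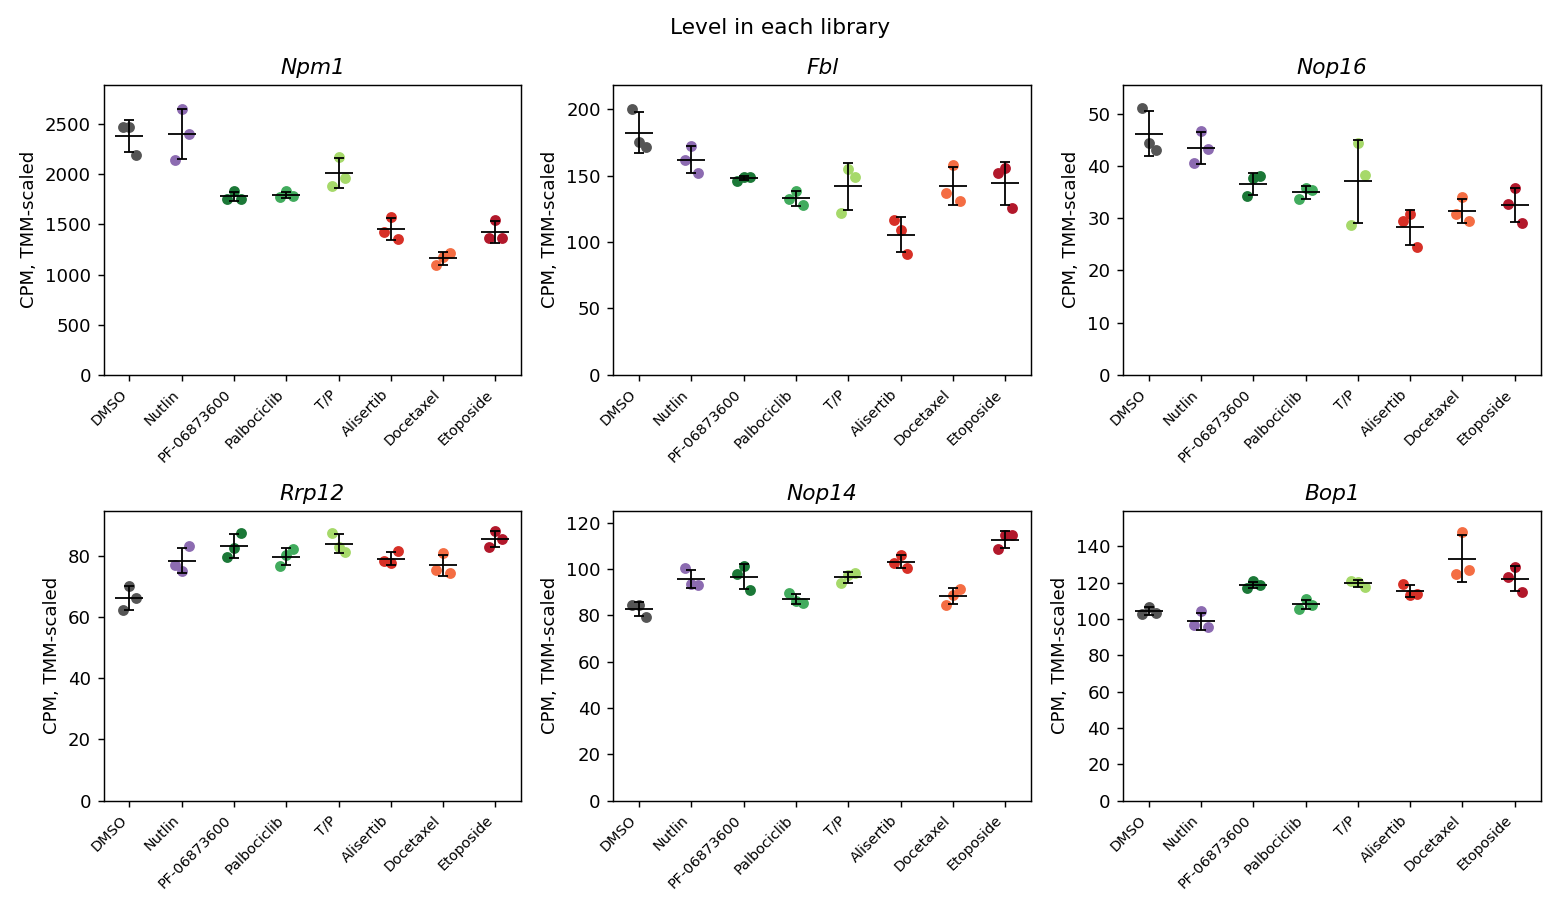
Level of 6 of the genes in each library, in TMM-scaled CPM, with horizontal bars at group means and whiskers of 1 SD (n = 3). Npm1 falls to a mean of 1163 with docetaxel from 2382 in DMSO, Fbl and Nop16 are lowest with alisertib, and Rrp12 and Nop14 lie highest with etoposide.

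Of the 14 genes for assembly of the small subunit, 5 (35.7%) rose with PF-06873600 and none fell, where 17.9% of all genes rose (edgeR, adjusted p under 0.05). The 5 became 1 without DMSO 3 or PF-06873600 2 and 3 without PF-06873600 1. With T/P 3 rose (21.4%, where 15.1% of all genes did) and none fell, and with Nutlin 2 rose (14.3%, where 8.02% did) and none fell, or 1 without Nutlin 3. The shares that rose with the drugs acting on mitosis or DNA were near or below those of all genes: 4 of 14 with docetaxel (28.6%, against 26.5%), 4 with alisertib (28.6%, against 27.8%) and 3 with etoposide (21.4%, against 27.7%). With docetaxel 2 fell, with alisertib 4 and with etoposide 1. The docetaxel rises became 2 without DMSO 1, DMSO 2, DMSO 3 or Docetaxel 2, and the alisertib falls became 0 without DMSO 1, 1 without DMSO 2, Alisertib 2 or Alisertib 3, and 2 without Alisertib 1. With palbociclib 2 rose and 3 fell, and with total counts as scaling this turned to 5 and 1. Of all genes 24.4% then rose and 12.8% fell. With total counts 11 of the 14 rose with docetaxel (42.2% of all genes did) and 9 with etoposide (40.4% did). That scaling gave 6 rises with alisertib, where 39.3% of all genes rose, and 6 with PF-06873600, where 25.0% did. It gave 5 with T/P, where 17.6% did. None of the 14 fell with these 5 drugs, where at least 9.7% of all genes did.

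Rrp12, a HEAT-repeat protein needed for export of ribosomal subunits in yeast, was called higher with all 7 drugs. Its level was 62.3, 70.2 and 66.1 CPM in DMSO, and each of the 21 drug libraries had more than the highest of these, the lowest being Docetaxel 3 at 74.2 CPM. With etoposide the libraries had 82.8, 87.9 and 85.6 CPM, a log2 fold change of 0.37 ± 0.06, adjusted p 1.56e-05. With T/P it was 0.34 ± 0.06, adjusted p 0.000119, with PF-06873600 0.33 ± 0.06, adjusted p 0.00016 and with palbociclib 0.27 ± 0.06, adjusted p 0.00129. With alisertib it was 0.25 ± 0.06, adjusted p 0.00102. With docetaxel it was 0.21 ± 0.06, adjusted p 0.005, lost without DMSO 1 (adjusted p 0.0771). With Nutlin it was 0.24 ± 0.06, adjusted p 0.00542, lost without Nutlin 3 (adjusted p 0.0505). The 7 comparisons share the same 3 DMSO libraries, which are also the lowest of the 8 groups for this gene.

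Nop14, a protein of the small subunit processome, had 84.5, 84.7 and 79.4 CPM in DMSO, 108, 115 and 115 CPM with etoposide and 103, 106 and 101 CPM with alisertib. Neither drug group overlapped DMSO. It rose by a log2 fold change of 0.44 ± 0.055, adjusted p 3.64e-07 with etoposide, the largest rise of any of the 47 genes in a comparison with DMSO. It was 0.32 ± 0.055, adjusted p 4.27e-05 with alisertib, 0.22 ± 0.055, adjusted p 0.00398 with T/P and 0.21 ± 0.056, adjusted p 0.00956 with Nutlin. The T/P and Nutlin calls were lost with no filter on low counts. PF-06873600 gave 0.22 ± 0.055, adjusted p 0.00309, lost without any 1 of DMSO 3 and PF-06873600 2 (adjusted p 0.0606 to 0.0786). With palbociclib it was 0.07 ± 0.055, adjusted p 0.326, and with docetaxel 0.09 ± 0.055, adjusted p 0.187, and with total counts as scaling both became calls (0.16, adjusted p 0.021 and 0.30, adjusted p 7.33e-05). Exons of Nop14 overlap those of Gm15522 on the other strand.

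Heatr1, whose yeast homologue Utp10 joins early processing to polymerase I, had 75.1, 78.2 and 78.7 CPM in DMSO and 92.8, 96.1 and 97.6 CPM with docetaxel, and rose there by a log2 fold change of 0.30 ± 0.065, adjusted p 0.00048. With alisertib it was 0.17 ± 0.065, adjusted p 0.0286, lost without any 1 of DMSO 1, DMSO 2 and Alisertib 3 (adjusted p 0.0651 to 0.153). The PF-06873600 value was 0.19 ± 0.065, adjusted p 0.0326, lost without any 1 of DMSO 1, DMSO 2, DMSO 3, PF-06873600 1, PF-06873600 2 and PF-06873600 3 (adjusted p 0.0694 to 0.317). With palbociclib it was 0.18 ± 0.065, adjusted p 0.0374, lost without any 1 of DMSO 1, DMSO 2, DMSO 3, Palbociclib 2 and Palbociclib 3 (adjusted p 0.114 to 0.231). The calls of Heatr1 with PF-06873600 and with palbociclib were also lost with RLE factors and with DESeq2. Exons of Heatr1 overlap those of Lgals8 on the other strand.

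Pno1 and Bysl encode factors bound to precursors of the small subunit. Pno1 had 45.5, 45.6 and 39.3 CPM in DMSO and 55.1, 53.6 and 52.7 CPM with alisertib, with no overlap (0.31 ± 0.086, adjusted p 0.00413). With PF-06873600 its log2 fold change was 0.32 ± 0.086, adjusted p 0.00525, lost without any 1 of DMSO 3 and PF-06873600 2 (adjusted p 0.0629 to 0.0942). With T/P it was 0.27 ± 0.086, adjusted p 0.0199, lost without any 1 of DMSO 3 and T/P 2 (adjusted p 0.175 to 0.19). Bysl had 48.1, 47.8 and 45.1 CPM in DMSO and 59.1, 61.9 and 52.3 CPM with etoposide (0.30 ± 0.10, adjusted p 0.011), without overlap, and the call was lost without Etoposide 2 (adjusted p 0.0621). PF-06873600 gave 0.32 ± 0.10, adjusted p 0.0112, lost without any 1 of DMSO 3, PF-06873600 1 and PF-06873600 2 (adjusted p 0.0576 to 0.0799). With docetaxel it was 0.26 ± 0.095, adjusted p 0.0244, lost without any 1 of DMSO 2, DMSO 3 and Docetaxel 2 (adjusted p 0.0605 to 0.122). Exons of Bysl overlap those of Ccnd3, which encodes cyclin D3, on the other strand.

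Ltv1, a factor for export and maturation of the small subunit in yeast, fell. It had 45.5, 41.9 and 38.5 CPM in DMSO and 33.5, 32.7 and 33.0 CPM with palbociclib, with no overlap, and a log2 fold change of -0.34 ± 0.076, adjusted p 0.00114. With docetaxel it was -0.25 ± 0.075, adjusted p 0.00864, lost with total counts as scaling (-0.04, adjusted p 0.656). With alisertib it was -0.19 ± 0.076, adjusted p 0.0346, lost with total counts (0.0013, adjusted p 0.988) and without any 1 of DMSO 1, DMSO 2, Alisertib 2 and Alisertib 3 (adjusted p 0.0524 to 0.191). RLE factors and DESeq2 also lost this alisertib call. Wdr43, a scaffold of the processome whose promoter window is shown above, had 225, 219 and 219.8 CPM in DMSO and 193, 197 and 201 CPM with palbociclib (-0.17 ± 0.049, adjusted p 0.0101). The Wdr43 call was lost with total counts as scaling (-0.08, adjusted p 0.316). Rrp9, Utp20 and Wdr75, all parts of the processome, were called in no comparison with DMSO under the main settings. With alisertib Utp20 was called under RLE factors, DESeq2, a filter of 1 CPM in 3 libraries, and only the groups compared. It was likewise called there without the libraries numbered 2, without DMSO 2 and without Alisertib 1. With the replicate block Utp20 was called higher with PF-06873600 (0.15, adjusted p 0.0495) and alisertib (0.20, adjusted p 0.00545). With total counts Utp20 was called higher with PF-06873600 (0.24, adjusted p 0.0126), palbociclib (0.23, adjusted p 0.0142), alisertib (0.39, adjusted p 8.18e-05), docetaxel (0.39, adjusted p 9.98e-05) and etoposide (0.26, adjusted p 0.00355). Rrp9 and Wdr75 were then called higher with docetaxel (0.27, adjusted p 0.00352 and 0.23, adjusted p 0.0242) and etoposide (0.33, adjusted p 0.000553 and 0.25, adjusted p 0.0163).

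Falls outnumbered rises among the 16 genes for assembly of the large subunit with all 7 drugs under TMM scaling, but with total counts rises outnumbered falls with PF-06873600 (5 and 1), docetaxel (5 and 1) and etoposide (7 and 3). With alisertib 10 of the 16 fell (62.5%, where 26.1% of all genes did) and 3 rose, and their median log2 fold change was -0.31. The 3 rises became 0 without DMSO 1, Alisertib 2 or Alisertib 3 and 1 without DMSO 3. With palbociclib 8 fell (50%, where 17.4% of all genes did) and none rose, with a median of -0.22. With total counts these medians were -0.11 for alisertib, with 4 lower and 3 higher, and -0.13 for palbociclib, with 7 lower and 2 higher. Of all genes 15.5% were then lower and 39.3% higher with alisertib, and 12.8% and 24.4% with palbociclib. With etoposide 7 fell (43.8%, where 26.9% of all genes did) and 1 rose, and with docetaxel 6 fell (37.5%, where 22.5% did) and 1 rose. With Nutlin 6 fell (37.5%, where 11.4% did) and none rose, but the 6 became 0 without Nutlin 1, 1 without DMSO 2 or Nutlin 3 and 2 without DMSO 1. With T/P 4 fell (25%, where 14.6% did) and 1 rose, the 4 becoming 2 without T/P 1 or T/P 3. With PF-06873600 3 fell (18.8%, where 14.1% did) and 1 rose, the 3 becoming 1 without DMSO 1.

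Nop16, an assembly factor of the large subunit that was described as a direct MYC target, had 51.1, 44.4 and 43.1 CPM in DMSO and 29.4, 30.9 and 24.5 CPM with alisertib. The 3 alisertib libraries lay below all DMSO libraries, with a log2 fold change of -0.71 ± 0.12, adjusted p 2.5e-05. It was -0.56 ± 0.12, adjusted p 0.000408 with docetaxel, -0.50 ± 0.12, adjusted p 0.000875 with etoposide and -0.40 ± 0.12, adjusted p 0.0101 with palbociclib. With PF-06873600 it was -0.33 ± 0.12, adjusted p 0.0325, lost with total counts (-0.24, adjusted p 0.07) and without any 1 of DMSO 1, PF-06873600 1 and PF-06873600 3 (adjusted p 0.0523 to 0.0928). With T/P the libraries had 28.6, 44.3 and 38.3 CPM and overlapped DMSO (-0.32 ± 0.12, adjusted p 0.0457), and the call was lost without any 1 of DMSO 1, T/P 1 and T/P 3 (adjusted p 0.052 to 0.225). With Nutlin it was -0.08 ± 0.12, adjusted p 0.672.

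Rrp1, which in yeast acts in processing of the large-subunit RNA, had 519, 471 and 464 CPM in DMSO, 365, 357 and 303 CPM with alisertib and 374, 388 and 336 CPM with etoposide. No library of either drug reached the DMSO range. The log2 fold change was -0.50 ± 0.078, adjusted p 9.62e-06 with alisertib and -0.41 ± 0.078, adjusted p 0.000121 with etoposide. It was -0.40 ± 0.078, adjusted p 0.000388 with palbociclib, -0.33 ± 0.078, adjusted p 0.0023 with T/P and -0.28 ± 0.078, adjusted p 0.00883 with PF-06873600, and these 5 calls held under every alternative tried. With docetaxel it was -0.21 ± 0.078, adjusted p 0.027, lost with total counts (-0.0072, adjusted p 0.932) and without any 1 of DMSO 1, Docetaxel 1 and Docetaxel 3 (adjusted p 0.0685 to 0.106).

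Pes1, Bop1 and Wdr12 encode the 3 proteins of the PeBoW complex, which is needed for processing of the large-subunit RNA. They moved differently. Pes1 had 166, 177 and 162 CPM in DMSO, 132, 136 and 122 CPM with palbociclib and 132, 138 and 124 CPM with etoposide, with no overlap with DMSO. Its log2 fold change was -0.37 ± 0.068, adjusted p 0.000171 with palbociclib, -0.36 ± 0.068, adjusted p 9.76e-05 with etoposide and -0.32 ± 0.067, adjusted p 0.000364 with alisertib. With docetaxel it was -0.29 ± 0.067, adjusted p 0.00117, lost with total counts as scaling (-0.08, adjusted p 0.188). With T/P it was -0.19 ± 0.067, adjusted p 0.0353, lost without any 1 of DMSO 2, T/P 1 and T/P 3 (adjusted p 0.0573 to 0.0907). With Nutlin it was -0.20 ± 0.068, adjusted p 0.0439, lost without any 1 of DMSO 1, DMSO 2, DMSO 3, Nutlin 1 and Nutlin 3 (adjusted p 0.0571 to 0.243).

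Bop1 had 103, 107 and 104 CPM in DMSO and 125, 148 and 127 CPM with docetaxel, each above the DMSO range, and rose by a log2 fold change of 0.35 ± 0.062, adjusted p 5.47e-05. With etoposide it was 0.23 ± 0.062, adjusted p 0.00301, lost with no filter on low counts. The value with PF-06873600 was 0.19 ± 0.062, adjusted p 0.0209, lost without any 1 of DMSO 1, DMSO 2, DMSO 3, PF-06873600 1, PF-06873600 2 and PF-06873600 3 (adjusted p 0.0541 to 0.16). With T/P it was 0.20 ± 0.062, adjusted p 0.0169, lost without any 1 of DMSO 1, DMSO 2, DMSO 3, T/P 1 and T/P 2 (adjusted p 0.05 to 0.0839). With alisertib it was 0.15 ± 0.062, adjusted p 0.048, lost without any 1 of DMSO 1, DMSO 2, DMSO 3, Alisertib 1, Alisertib 2 and Alisertib 3 (adjusted p 0.0519 to 0.161). Exons of Bop1 overlap those of Mroh1 on the other strand.

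Wdr12 had 44.0, 42.9 and 44.6 CPM in DMSO, 34.8, 36.5 and 38.9 CPM with docetaxel and 46.1, 48.4 and 50.7 CPM with palbociclib. The docetaxel libraries lay below and the palbociclib libraries above the DMSO range. The log2 fold change was -0.26 ± 0.058, adjusted p 0.000866 with docetaxel, lost with total counts (-0.05, adjusted p 0.572), and 0.14 ± 0.058, adjusted p 0.06 with palbociclib, a call higher with total counts (0.23, adjusted p 0.00888). With alisertib it was -0.19 ± 0.059, adjusted p 0.00859 and with etoposide -0.16 ± 0.059, adjusted p 0.0241. With total counts as scaling the alisertib value was 0.0049, adjusted p 0.958 and the etoposide value was 0.05, adjusted p 0.539, so both changed sign. The etoposide call was also lost with RLE factors, with DESeq2, and without any 1 of DMSO 1, DMSO 3, Etoposide 1 and Etoposide 2 (adjusted p 0.0506 to 0.065). Whether Pes1, Bop1 and Wdr12 differ in their response was not tested.

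Besides these, 4 genes of this role fell with palbociclib under every alternative tried. Mrto4, a factor that holds the place of a stalk protein on the large subunit, had 69.2, 66.3 and 60.2 CPM in DMSO and 50.4, 49.9 and 50.4 CPM with palbociclib (-0.38 ± 0.058, adjusted p 2.12e-05). Grwd1, a chaperone of a ribosomal protein, had 56.0, 51.2 and 51.6 CPM in DMSO and 40.8, 41.6 and 40.3 CPM with palbociclib (-0.37 ± 0.068, adjusted p 0.000171). Rrs1, which helps mount the 5S particle, had 109.6, 97.2 and 96.6 CPM in DMSO and 81.6, 84.9 and 76.3 CPM with palbociclib (-0.32 ± 0.08, adjusted p 0.00313). Nip7, which acts in processing of the large-subunit RNA, had 77.5, 74.5 and 63.8 CPM in DMSO and 61.3, 57.2 and 54.9 CPM with palbociclib (-0.31 ± 0.09, adjusted p 0.00865). In each of the 4 the groups did not overlap. Rrs1 also fell with alisertib (-0.48 ± 0.08, adjusted p 2.27e-05), with 72.8, 78.7 and 65.6 CPM.

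With Nutlin 6 of the 7 falls were in this role. Urb2 had 43.5, 51.6 and 53.2 CPM in DMSO and 36.5, 43.8 and 40.7 CPM with Nutlin, where the highest drug library passed the lowest DMSO library, and a log2 fold change of -0.29 ± 0.10, adjusted p 0.0322. Ddx18, an RNA helicase, had 77.7, 92.4 and 77.3 CPM in DMSO and 64.1, 77.4 and 67.5 CPM with Nutlin (-0.24 ± 0.083, adjusted p 0.042), also overlapping. Grwd1 had 45.2, 47.7 and 44.1 CPM with Nutlin (-0.21 ± 0.068, adjusted p 0.0294), below the DMSO range. The call of Urb2 was lost without any 1 of DMSO 2, DMSO 3, Nutlin 1 and Nutlin 3 (adjusted p 0.0889 to 0.218), that of Ddx18 without any 1 of DMSO 2, Nutlin 1 and Nutlin 3 (adjusted p 0.147 to 0.303) and that of Grwd1 without any 1 of DMSO 1, Nutlin 1 and Nutlin 3 (adjusted p 0.109 to 0.138). Urb2 moved the other way with alisertib, at 54.4, 63.4 and 62.0 CPM (0.28 ± 0.094, adjusted p 0.0156), a call lost without any 1 of DMSO 1, Alisertib 2 and Alisertib 3 (adjusted p 0.0573 to 0.12).

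**Figure D4:**
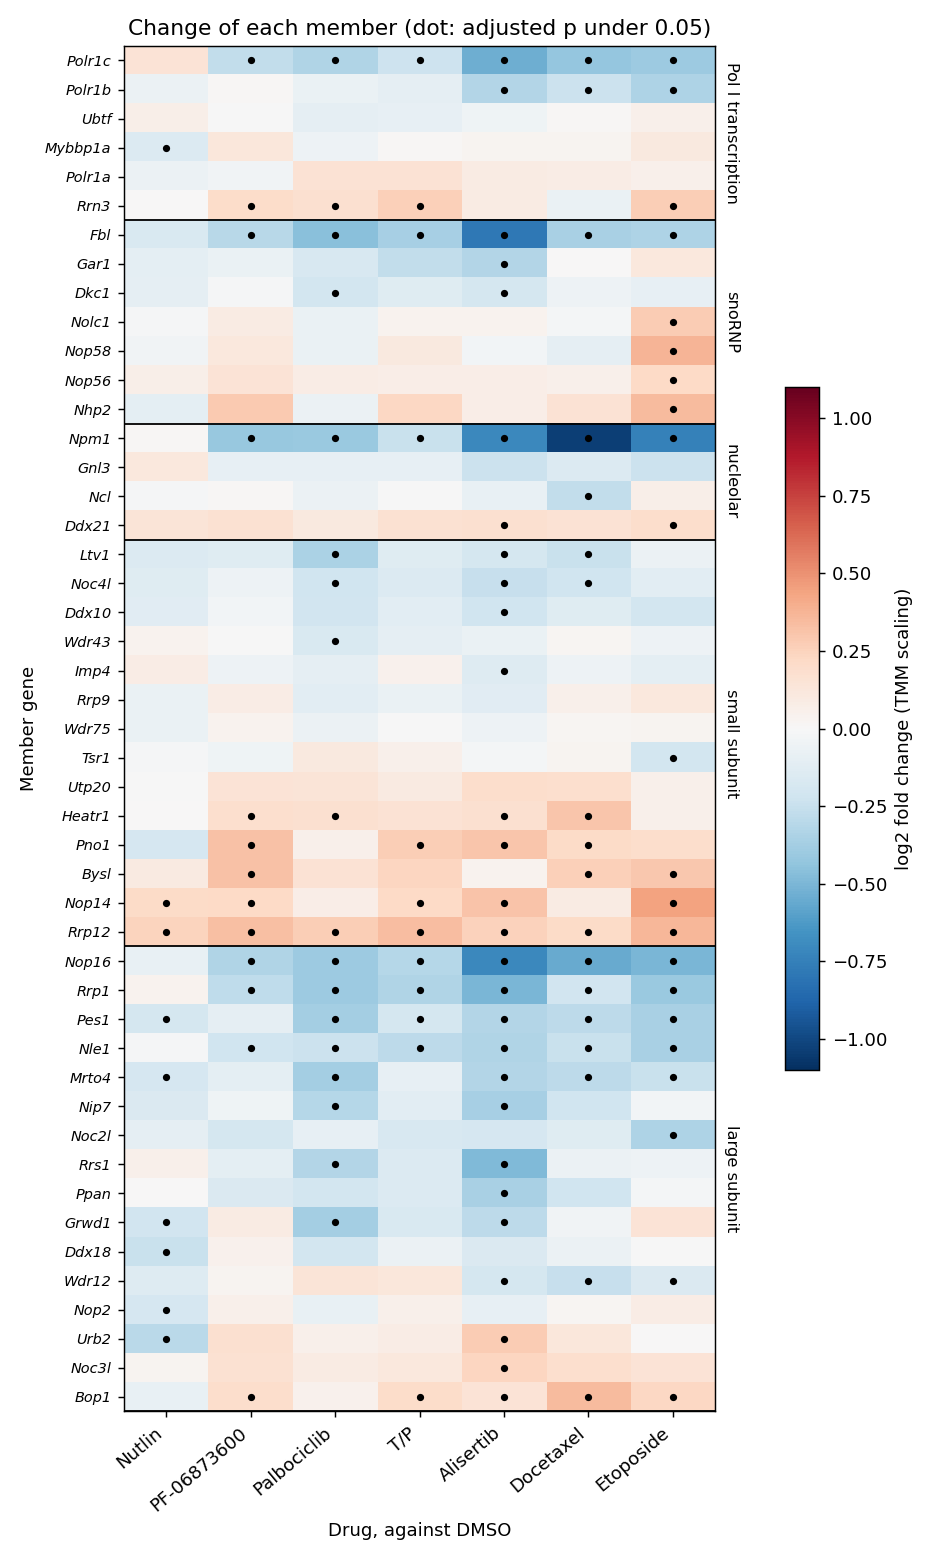
Log2 fold change of each of the 47 genes (rows, grouped by role) against DMSO for each drug (columns), with TMM scaling; blue is lower, red is higher, and a dot marks an adjusted p under 0.05 (edgeR). Npm1 with docetaxel (-1.03) is the darkest cell, and Nop14 with etoposide (0.44) is the largest rise.

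T/P was compared with palbociclib alone, since both groups received 1 µM palbociclib and by the reading above differ in trametinib. Mrto4 was called higher with T/P, 1 of the 47 genes, where 1.64% of all genes were higher and 2.47% lower. It had 60.3, 62.5 and 61.4 CPM with T/P and 50.4, 49.9 and 50.4 CPM with palbociclib, and every T/P library was above every palbociclib library. Its log2 fold change was 0.29 ± 0.058, adjusted p 0.00568. Without the libraries numbered 2 the call was lost (adjusted p 0.0838), and without T/P 1 the count of calls was 2. In 15 of the 47 genes all T/P libraries lay above all palbociclib libraries, where 13.9% of all genes did, and in 0 of the 47 all lay below, where 17.1% did. None of the 47 was called lower by edgeR. At an unadjusted p under 0.05 (edgeR) 13 were higher and 0 lower. No count over all genes stands beside these counts, so nothing is concluded from them. DESeq2 called 3 of the 47 higher and 0 lower, where it called 585 of all 15527 genes higher and 552 lower. Grwd1 (0.20 ± 0.068, adjusted p 0.0878), Ltv1 (0.22 ± 0.076, adjusted p 0.106) and Pes1 (0.18 ± 0.068, adjusted p 0.129) were among the 15 and did not pass the test. For Ltv1 the 95% interval of the difference was 0.06 to 0.37 on the log2 scale, and for Npm1 (0.16 ± 0.082, adjusted p 0.261) it was -0.01 to 0.33. The median over the 47 genes was 0.07.

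Alisertib, docetaxel and etoposide, which act on mitosis or on DNA, were also compared as a mean of 3 groups with the mean of palbociclib and T/P, a comparison that uses no DMSO library. In it 7 of the 47 genes were lower and 6 higher, where 26.8% of all genes were lower and 26% higher. Npm1 was lower (-0.50 ± 0.053, adjusted p 2.61e-08), and so was Wdr12 (-0.34 ± 0.037, adjusted p 6.9e-08). Both had all 9 libraries of the first set below all 6 of the second. Polr1b was lower (-0.21 ± 0.035, adjusted p 1.89e-05), with the same separation, seen in 3 of the 47 where 8.39% of all genes had it, and with total counts as scaling the call was lost (-0.07, adjusted p 0.125). Grwd1 was higher (0.21 ± 0.044, adjusted p 0.00028), with means of 43.2, 51.7 and 58.8 CPM with alisertib, docetaxel and etoposide and of 40.9 and 47.1 CPM with palbociclib and T/P. Nop14 was higher (0.14 ± 0.036, adjusted p 0.00235), and so was Bop1 (0.12 ± 0.04, adjusted p 0.0159). With total counts as scaling 31 of the 47 were higher and 2 lower, where 39.5% of all genes were higher and 14.2% lower. The median of all genes then moved by 0.14.

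Of 86 other genes of the same pathway, listed by role with earlier results of these data known, all were tested. With alisertib 42 fell (48.8%, where 26.1% of all genes did) and 8 rose (9.3%, where 27.8% did). With palbociclib 37 fell (43%, against 17.4%) and 5 rose (5.81%, against 18.5%), with docetaxel 33 fell (38.4%, against 22.5%) and 12 rose (14%, against 26.5%), and with etoposide 32 fell (37.2%, against 26.9%) and 12 rose (14%, against 27.7%). With PF-06873600 22 fell (25.6%, against 14.1%) and 7 rose (8.14%, against 17.9%), with T/P 20 fell (23.3%, against 14.6%) and 7 rose (8.14%, against 15.1%), and with Nutlin 15 fell (17.4%, against 11.4%) and 2 rose (2.33%, against 8.02%). With total counts as scaling the balance turned with alisertib (20 fell and 26 rose), docetaxel (13 and 36), etoposide (15 and 36) and PF-06873600 (11 and 18), and held with palbociclib (22 and 12), T/P (15 and 11) and Nutlin (17 and 2). Among all genes tested that scaling gave more rises than falls with every drug but Nutlin. Nop53, a nucleolar factor of the large subunit, had 320.0, 295 and 268 CPM in DMSO and 144, 151 and 119 CPM with alisertib (-1.09 ± 0.10, adjusted p 1.7e-09). Nob1, the nuclease that finishes the small-subunit RNA, had 130.3, 124 and 107 CPM in DMSO and 65.1, 59.3 and 52.6 CPM with alisertib (-1.03 ± 0.08, adjusted p 2.23e-10). Among the rises, Nmd3, the export adaptor of the large subunit, had 55.3, 53.7 and 51.2 CPM in DMSO and 78.1, 84.7 and 78.7 CPM with etoposide (0.59 ± 0.053, adjusted p 2.02e-09). Dhx37, a helicase of the processome, had 63.1, 62.7 and 64.0 CPM with etoposide against 42.6, 45.6 and 44.6 CPM in DMSO (0.52 ± 0.062, adjusted p 1.92e-07).

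The genes of ribosomal proteins, which these factors mount, fell with 6 drugs by larger medians than the 47, under TMM and total-count scaling alike. Of 77 tested, 72 fell and none rose with alisertib, with a median log2 fold change of -0.74, and with Nutlin 1 fell, with a median of -0.02. With total counts 68 fell with alisertib, with a median of -0.56. With docetaxel 60 fell and 1 rose (Rps10, a row of 4.63 CPM in DMSO), with etoposide 59 fell and with palbociclib 56 fell. With PF-06873600 47 fell and with T/P 29 fell. Their share of all counts was 9.79% ± 0.822 in DMSO and 6.72% ± 0.892 with alisertib, while that of the 47 assembly genes was 0.858% and 0.832%.

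The mouse Myc row was called in no comparison with DMSO. It had 113, 113 and 136 CPM in DMSO and 102, 93.5 and 112 CPM with T/P, the lowest group (-0.24 ± 0.10, adjusted p 0.0708). The labels do not say whether reads of the human transgene could fall on this row. Cdkn1a, which encodes the cell cycle inhibitor p21, was called higher with all 7 drugs, from 0.21 ± 0.077, adjusted p 0.0361 with palbociclib, lost without any 1 of DMSO 1, DMSO 2, DMSO 3, Palbociclib 1, Palbociclib 2 and Palbociclib 3 (adjusted p 0.0561 to 0.151), to 1.40 ± 0.076, adjusted p 3.57e-13 with etoposide. Mki67, a marker of cycling cells, was higher with alisertib (1.44 ± 0.18, adjusted p 5.01e-07), docetaxel (0.94 ± 0.18, adjusted p 0.000143), etoposide (1.41 ± 0.18, adjusted p 5.83e-07) and PF-06873600 (0.51 ± 0.18, adjusted p 0.0332), the last call being lost without any 1 of DMSO 1, DMSO 3, PF-06873600 1, PF-06873600 2 and PF-06873600 3 (adjusted p 0.055 to 0.138). It was lower with Nutlin (-1.32 ± 0.19, adjusted p 1.63e-05) and was not called with palbociclib (-0.13 ± 0.18, adjusted p 0.605) or T/P (-0.09 ± 0.18, adjusted p 0.766). The part of cell cycle stage in the changes above was not tested.

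On build mm10 the 47 genes lie on 18 chromosomes, by GENCODE vM21, with 8 on chromosome 11. Npm1 lies on chromosome 11 (33152287 to 33163206, minus strand), Fbl on chromosome 7 (28169710 to 28179269, plus strand) and Nop16 on chromosome 13 (54584185 to 54590090, minus strand). Rrp12 lies on chromosome 19 (41862851 to 41896173, minus strand). Their values are counts over annotated exons. In 8 of the 47 genes lie 23 annotated snoRNA genes, with 5 inside Nop56 and 4 inside Nop58. In 14 of the 47, exons overlap a gene on the other strand. They are Polr1a, Mybbp1a, Wdr43, Heatr1, Nop14, Imp4, Bysl, Tsr1, Pes1, Bop1, Wdr12, Noc2l, Grwd1 and Urb2. Since the strand setting of the counting is not given in the sources used here, reads of the pair cannot be told apart. In 7 of the 47, including Npm1, Nop56 and Pes1, a stretch of at least 300 bases is at least 95% identical to another annotated gene. The largest such share was for Nop56, where the other gene held counts equal to 1.76% of its own.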

How the data were processed

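RNA from 24 libraries in 8 groups of 3 was analysed. Per the submitters' processing notes, the tools were fastp, STAR, featureCounts and DESeq2 and the build was mm10, with versions and strand setting not given in the sources used here. The authors deposited raw counts per gene, with no normalization, and TPM per gene, which scale each library to the same sum. The counts were tested with edgeR 4.0.16 in R 4.3.3: TMM factors, genes kept by filterByExpr (minimum count 10, minimum total 15), and a quasi-likelihood fit over all 24 libraries with 16 residual degrees of freedom. Two-sided p-values were adjusted by Benjamini-Hochberg over 15527 genes and called under 0.05. A standard error is the size of the log2 fold change divided by the square root of F. The 9 comparisons were 7 drugs against DMSO, T/P against palbociclib, and 1 pooled contrast. The test was checked on simulated counts.

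Alternatives were RLE factors, total counts as scaling, DESeq2 1.42.0, 2 other filters on low counts, only the groups compared, a replicate block, leaving out each library, leaving out the libraries numbered 2, and limma 3.58.1 on log2(TPM + 1) or log2(TPM + 0.1). The library numbers come from the labels, which tie them to no shared culture. Deviations of same-numbered libraries correlated above 0.1 in all 3 pairs for PF-06873600, alisertib and etoposide with DMSO (0.117 to 0.352), and the numbers were read as pairs only there. With DMSO, the libraries numbered 2 also correlated for T/P (0.310), docetaxel (0.360) and Nutlin (0.396), where another pair was below 0.1. These values cannot settle which libraries are paired, and the main fit holds no pairing.

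The members and gene lists were chosen with earlier results of these data known. Genes are named by rule: the 3 largest called rises and falls of each comparison, 14 members in every comparison (Ncl, Npm1, Fbl, Nop56, Dkc1, Polr1b, Rrn3, Ubtf, Pes1, Bop1, Wdr12, Mybbp1a, Heatr1 and Ltv1), and Myc, Cdkn1a, Mdm2 and Mki67 as context. Other genes named were chosen after their values were seen. Positions and exon overlaps are from GENCODE vM21, in which 54435 of the 55487 gene IDs were found with the same version. Results for some marker genes are not reported here.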

Additional observations from a re-analysis of the deposited data

How the results depend on the processing

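With total counts, calls higher were 17 (PF-06873600), 10 (palbociclib), 9 (T/P), 18 (alisertib), 25 (docetaxel), 27 (etoposide) and 31 (pooled comparison), and calls lower were 2 (PF-06873600), 7 (alisertib), 3 (docetaxel), 5 (etoposide) and 2 (pooled). With limma on log2(TPM + 1), and with a pseudocount of 0.1, calls higher were 16 (PF-06873600), 10 (palbociclib), 8 (T/P), 21 (alisertib), 24 (docetaxel), 25 (etoposide), 1 (Nutlin) and 31 (pooled), and calls lower were 6 (alisertib), 3 (docetaxel), 5 (etoposide) and 2 (pooled). With no filter on low counts, calls higher were 4 (PF-06873600), 0 (palbociclib), 2 (T/P), 4 (alisertib), 2 (docetaxel), 0 (Nutlin), 2 (T/P against palbociclib) and 2 (pooled), and 1 was lower with Nutlin. With only the groups compared in the fit, calls lower were 3 (T/P), 13 (alisertib) and 0 (Nutlin), and calls higher 0 (Nutlin). With DESeq2 3 were higher in T/P against palbociclib and 10 in the pooled comparison, and with a filter of 1 CPM in 3 libraries 10 were higher in the pooled comparison. Without the libraries numbered 2, calls higher were 2 (PF-06873600), 1 (palbociclib), 5 (alisertib), 6 (etoposide), 1 (Nutlin), 0 (T/P against palbociclib) and 2 (pooled), and 2 were lower with Nutlin. The cause of these shifts was not tested. With the replicate block, calls higher were 11 (PF-06873600), 6 (palbociclib), 9 (T/P), 8 (docetaxel) and 7 (T/P against palbociclib), and every other count stayed within 1.5 times. Where the numbers were not read as pairs, this block result is a description.

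Leaving out 1 library at a time, calls higher ranged from 3 to 8 (alisertib), 3 to 4 (docetaxel), 7 to 10 (etoposide), 1 to 2 (Nutlin), 1 to 2 (palbociclib), 1 to 5 (PF-06873600), 3 to 5 (T/P), 1 to 2 (T/P against palbociclib) and 5 to 9 (pooled). Calls lower ranged from 13 to 20 (alisertib), 10 to 14 (docetaxel), 10 to 11 (etoposide), 0 to 7 (Nutlin), 13 to 18 (palbociclib), 3 to 8 (PF-06873600), 4 to 9 (T/P), 0 to 0 (T/P against palbociclib) and 5 to 8 (pooled). Losses given beside a gene above cover total counts and single libraries left out, and other settings only where named. With RLE factors and with DESeq2, Imp4 and Ddx10 with alisertib and Tsr1 with etoposide also lost their calls. RLE factors further lost Pes1 and Mybbp1a with Nutlin.

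Of 2665 values for single genes under the alternatives, 32 changed sign where the gene was called under either setting, 241 lost and 80 gained a call, and 2312 did neither. The 32 are these log2 fold changes, given in the order total counts, TPM + 1 and TPM + 0.1. With alisertib they were 0.14, 0.21 and 0.21 for Ubtf, 0.0049, 0.063 and 0.068 for Wdr12, 0.0013, 0.066 and 0.067 for Ltv1, and for the TPM settings 0.17 and 0.17 for Ncl and 0.061 and 0.062 for Dkc1. With docetaxel they were 0.16, 0.18 and 0.19 for Dkc1, 0.14, 0.16 and 0.17 for Rrn3, and for the TPM settings 0.0053 and 0.0054 for Polr1b. With etoposide they were 0.051, 0.040 and 0.043 for Wdr12. In the pooled comparison they were 0.017, 0.020 and 0.021 for Rrn3, 0.10, 0.10 and 0.10 for Pes1, and for the TPM settings 0.083 and 0.083 for Ncl. Depth did not limit these genes, whose lowest count was 521, but TPM as deposited keep no depth.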

Other observations

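Mdm2, a target of p53 and the protein that Nutlin binds, had a log2 fold change of 0.41 with Nutlin (adjusted p 0.000106, edgeR). Calls of Mdm2 were not limited to Nutlin. It was also called with docetaxel, lost without any 1 of DMSO 1, DMSO 2, DMSO 3, Docetaxel 1 and Docetaxel 3 (adjusted p 0.069 to 0.163, edgeR). It was called in the pooled comparison too, lost with limma on log2(TPM + 1) (-0.16, adjusted p 0.0613). Libraries numbered 2 were the lowest of their group in all 8 groups for Gnl3 and Noc2l, which is 4.26% of the 47 genes and 4.69% of all genes tested. Across the 47 genes, exon length and log2 fold change had a Spearman correlation of 0.52 with palbociclib and -0.48 for T/P against palbociclib, where all tested genes had 0.08 and -0.11. These correlations are across genes, which are not independent, share the same libraries and are given without a test.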
